A study of Mus musculus with 15 samples.

Results

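Chemokines are small secreted or membrane-bound proteins that attract leukocytes by binding G protein-coupled receptors, and the genes described here are all chemokine ligands and chemokine receptors in the counted table of hearts from mice with chronic kidney disease (CKD). Members were chosen by symbol alone, as every gene whose symbol is Ccl, Cxcl, Ccr, Cxcr or Ackr with a number and at most 1 letter, together with Cx3cl1, Cx3cr1, Xcl1 and Xcr1. This gave 55 of 17447 genes, made up of 21 CC ligands, 11 CXC ligands, 2 CX3C or XC ligands, 10 CC receptors, 8 CXC, CX3C or XC receptors and 3 atypical receptors. Of these, 29 had 10 or more counts in 3 or more libraries, and the same 29 passed the filter on low counts of the test used below. The study asked by RNA-seq how renalase (RNLS), a flavoprotein secreted mainly by the kidney, acts on the heart in CKD. All 15 mice were C57BL/6J males, aged 6 to 8 weeks at the start and with hearts sampled 18 weeks after surgery, 3 in each of 5 groups. WTSHAM mice were wild type and sham-operated, and the paper names no vector for them. WTCKD mice were wild type, had subtotal nephrectomy in a pair of operations and received the empty vector in week 2, and WTCKD + RNLS mice received AAV9-cTnT-RNLS, in which the cTnT promoter limits RNLS expression to cardiomyocytes. KOCKD and KOCKD + RNLS mice carried a TALEN-made RNLS knockout (rnls-/-, exon 4) with the same operation and the same vector or virus. All 4 CKD groups therefore share the nephrectomy, no sham-operated knockout group was analysed here, and Rnls was not in the counted table, so the genotype could not be checked on it. The column names of KOCKD + RNLS also share a prefix with those of some wild-type libraries, which was not resolved, and groups follow the sample labels throughout.

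Chemokine ligands fall into the CC, CXC, CX3C and XC classes by the spacing of their first cysteines, and most act through a receptor of the same class. In the heart, CC ligands such as Ccl2 draw monocytes that carry Ccr2, Cxcl12 holds cells that carry Cxcr4, and fractalkine (Cx3cl1) on endothelium is bound by Cx3cr1 on monocytes and macrophages. Atypical receptors bind ligands without G protein signalling and remove them.

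The promoters of 4 ligands are printed, chosen by the expression results below. Cx3cl1 was the member that edgeR called in both RNLS comparisons, Ccl6 and Ccl9 are neighbouring genes that were lower together in KOCKD + RNLS, and Cxcl10 was the only member whose groups did not overlap with the higher values in KOCKD + RNLS than in KOCKD. Each is the run of 250 bases before the annotated start (RefSeq, GRCm38.p6), from 5′ to 3′ on the gene's strand, with motif matches in capitals. The windows are chr8:94771930-94772179 on the plus strand for Cx3cl1, chr11:83593088-83593337 on the minus strand for Ccl6, chr11:83578637-83578886 on the minus strand for Ccl9 and chr5:92348890-92349139 on the minus strand for Cxcl10.
Cx3cl1: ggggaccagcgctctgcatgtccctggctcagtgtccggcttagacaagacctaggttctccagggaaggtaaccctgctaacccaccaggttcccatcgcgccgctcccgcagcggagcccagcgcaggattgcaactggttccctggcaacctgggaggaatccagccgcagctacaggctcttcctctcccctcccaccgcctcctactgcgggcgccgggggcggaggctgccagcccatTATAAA
Ccl6: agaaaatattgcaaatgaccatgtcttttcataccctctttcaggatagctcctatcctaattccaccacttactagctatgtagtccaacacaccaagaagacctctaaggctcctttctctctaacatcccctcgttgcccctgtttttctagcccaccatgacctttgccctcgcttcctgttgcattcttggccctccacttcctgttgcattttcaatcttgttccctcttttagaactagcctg
Ccl9: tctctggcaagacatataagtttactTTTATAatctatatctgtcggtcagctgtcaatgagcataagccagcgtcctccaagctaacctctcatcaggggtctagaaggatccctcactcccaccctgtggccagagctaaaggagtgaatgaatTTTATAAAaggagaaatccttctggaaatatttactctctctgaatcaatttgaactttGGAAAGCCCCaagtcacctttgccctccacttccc
Cxcl10: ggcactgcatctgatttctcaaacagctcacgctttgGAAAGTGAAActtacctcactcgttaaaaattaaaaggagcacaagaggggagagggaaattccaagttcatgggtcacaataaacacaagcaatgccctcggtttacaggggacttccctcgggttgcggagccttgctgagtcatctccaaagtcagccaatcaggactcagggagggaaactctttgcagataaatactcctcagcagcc
Motifs were searched on both strands. The kB motif was GGG, any 2 bases and then TTTCC. The interferon-stimulated response element (ISRE) was GAAA on either side of any 2 bases. The E-box was read as CACGTG. For the D-box the letters were TTANGTAA, and for TATA they were TATAAA. The capitals mark a TATAAA in the last 6 bases of the Cx3cl1 window, a kB match at bases -35 to -26 of Ccl9 together with 3 TATA matches of which 2 overlap, and an ISRE match at bases -213 to -204 of Cxcl10. None of these letters was found in the Ccl6 window. Among 22 of the 29 members with a window, 2 held the kB letters, 2 the ISRE letters, 0 the E-box, 1 the D-box and 10 the TATA letters. Over all 32536 windows of the same length the shares were 1.4%, 2.98%, 6.04%, 2.03% and 12.3%, respectively. These matches describe letters only.

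Levels between genes were compared as the FPKM values that the authors deposited, which scale fragments by gene length and library total. The atypical receptor Ackr3, which takes up Cxcl12, had the highest mean over the 15 hearts at 49.3 FPKM, and Cxcl12 followed at 39.3 FPKM. Next came Ccl21a at 23.5, Cxcl14 at 11.1 and Ccl6 at 10.7 FPKM. The lowest of the 29 was Cxcr2, the neutrophil receptor for Cxcl1, at 0.183 FPKM. In each library 5204 to 7719 reads fell on members, that is 0.0437% to 0.0659% of the counted reads, and Cxcl12 took 50.4% of all member reads. Several ligands were thus measured while their main receptor was at or near the limit of counting. Ccl21a was measured, but its receptor Ccr7 had at most 17 counts in a library. Cxcl9 and Cxcl10 were measured, but their receptor Cxcr3 had at most 6 counts, and the Cxcl16 receptor Cxcr6 had at most 9.

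**Figure D1:**
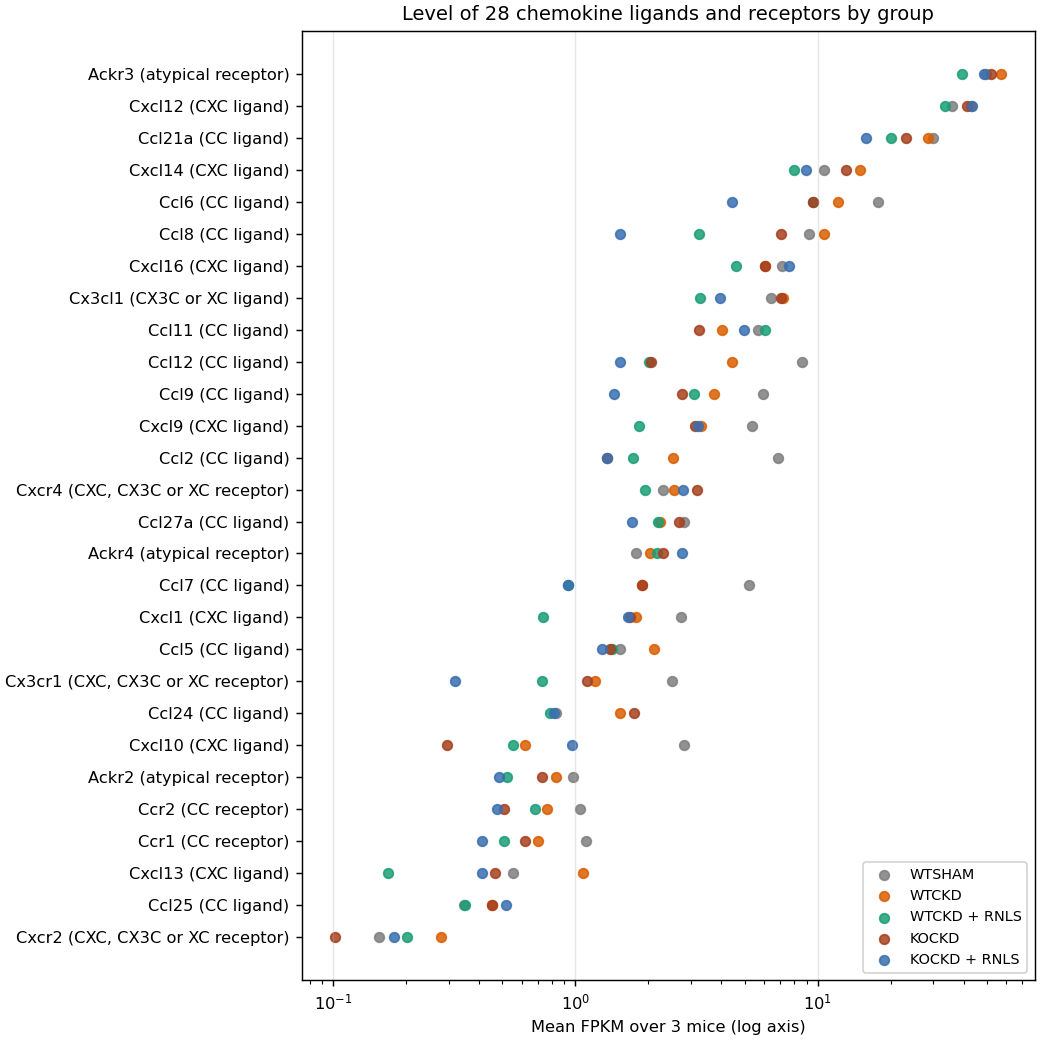
Mean FPKM (log axis) of 28 members with enough counts, ordered by their mean over all 15 mice, with a point for the mean of the 3 mice of each group. Ackr3 and Cxcl12 sit at the top at 49.3 and 39.3 FPKM over all mice, and for Ccl2, Ccl7 and Cxcl10 the WTSHAM point stands to the right of the 4 CKD groups.

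The remaining 26 members did not reach 10 counts in 3 libraries. Their largest counts in any library were 17 for Ccr7, 15 for Ccl19 and Ccl28, and 10 for Cxcl2. They were 9 for Ccl3, Cxcl5 and Cxcr6, 8 for Ccl4, 7 for Cxcr5 and Xcr1, 6 for Cxcr3 and 5 for Ccr10. Ccl17 and Ccl21b reached 4 counts, Ccl22, Ccr9, Cxcl3 and Xcl1 reached 3, and Ccr6 reached 2. Ccl26, Ccl27b, Ccr3, Ccr4, Cxcl17 and Cxcr1 had at most 1 count. Ccr8 had 0 counts in every library, and 0 counts in a single library, taken alone, allow an expected count of up to 3. Differences between groups were not detectable for these genes at this depth.

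Libraries held 10480788 to 13424078 counted reads (median 12011453), with TMM factors of 0.925 to 1.05. All values per mouse below are CPM, the counts scaled to the TMM-adjusted library total, in the order of replicates 1, 2 and 3, and fold changes are edgeR's log2 fold changes ± SE. WTSHAM replicate 1 stood apart from the other sham libraries in several members, such as Cx3cr1 with 15 counts against 231 and 114. Its column name has another prefix than those of the other sham libraries. The same holds for WTCKD + RNLS replicate 3 within its group, and what the prefixes mean was not resolved. With letter case counted, the groups of each comparison of 2 groups share no prefix. Anything the prefixes stand for therefore cannot be told apart from the group difference. The 9 cardiomyocyte markers, such as Myh6 and Tnnt2, were found in every library and summed to 79488 to 85175 CPM in WTSHAM, 80643 to 93272 in WTCKD, 97658 to 100908 in WTCKD + RNLS, 82569.8 to 88998 in KOCKD and 93795 to 95529 in KOCKD + RNLS. Both RNLS groups lay above their CKD control in this sum, of which Myh6 was the largest part, with a mean of 38875 CPM. By gene, 8 of the 9 had a positive log2 change in WTCKD + RNLS against WTCKD (median 0.11), but 6 of the 9 had a negative one in KOCKD + RNLS against KOCKD (median -0.06). Atrial markers summed to 175 to 1316 CPM in WTSHAM, 107.5 to 2593 in WTCKD and 151 to 542 in WTCKD + RNLS. In KOCKD they summed to 144 to 2793 CPM and in KOCKD + RNLS to 158 to 316 CPM. All 6 tested atrial markers had a positive log2 change from WTSHAM to WTCKD (median 1.02). All 6 were negative with RNLS, with medians of -2.54 in wild-type and -4.36 in knockout mice. The part of either tissue in the results below was not tested. With 3 mice against 3, an exact permutation test cannot go below p = 0.1, so the p-values given are those of edgeR's quasi-likelihood test fitted over all 13021 tested genes and adjusted by the Benjamini-Hochberg method.

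Many chemokine genes had their highest group mean in sham hearts, and many had their lowest in hearts that received RNLS. Of the 29 members, 15 had their highest group mean in WTSHAM and 7 in WTCKD, while 14 had their lowest in KOCKD + RNLS and 9 in WTCKD + RNLS. Over all tested genes 22.9% had the highest mean in WTSHAM, 13.4% had it in WTCKD, 23.4% had the lowest mean in KOCKD + RNLS and 17.7% had it in WTCKD + RNLS. A test of any difference among the 5 groups called 15 of 29 members (51.7%) at an adjusted p under 0.05 by edgeR, beside 22.2% of all tested genes. These were 7 of 12 CC ligands, 4 of 7 CXC ligands, Cx3cl1, 3 of 6 signalling receptors and 0 of 3 atypical receptors. Without WTSHAM replicate 2 the number was 7, and without any other single library it lay within 1.5 times the 15. In bulk tissue, fewer cells of a type and less RNA per cell cannot be told apart.

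The monocyte-attracting CC ligands Ccl2, Ccl7, Ccl12 and Ccl8 lie in a cluster with Ccl11 on chromosome 11 (RefSeq order). Ccl2, the principal ligand of Ccr2, measured 6.75, 6.24 and 3.31 CPM in WTSHAM and 0.845, 3.21 and 1.96 CPM in WTCKD. It measured 1.59, 1.49 and 1.3 CPM in WTCKD + RNLS, 0.7, 1.12 and 1.45 CPM in KOCKD, and 0.975, 0.496 and 1.78 CPM in KOCKD + RNLS. All 3 sham hearts were above all 12 CKD hearts. The change from WTSHAM to WTCKD was -1.44 ± 0.43 on the log2 scale with an adjusted p of 0.092 by edgeR, and the 5 groups differed with an adjusted p of 0.0043. Ccl7, which also binds Ccr2, measured 5.5, 4.44 and 2.35 CPM in WTSHAM and 1.61, 1.65 and 1.19 CPM in WTCKD. It measured 1, 1.11 and 0.23 CPM in WTCKD + RNLS, 0.787, 0.466 and 3.22 CPM in KOCKD and 0.813, 0.579 and 0.843 CPM in KOCKD + RNLS. WTSHAM did not overlap with WTCKD, but KOCKD replicate 3 stood within the sham range. Its 5-group difference had an adjusted p of 0.020 by edgeR, which became 0.0585 without WTSHAM replicate 1 and 0.0625 without WTSHAM replicate 2.

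Ccl12, the mouse ligand closest to Ccl2, was graded across the groups. Its values were 5.67, 5.34 and 2.58 CPM in WTSHAM and 3.13, 1.74 and 2.21 CPM in WTCKD. They were 1.92, 0.743 and 0.689 CPM in WTCKD + RNLS, 1.31, 0.932 and 1.05 CPM in KOCKD, and 1.06, 0.827 and 0.562 CPM in KOCKD + RNLS. KOCKD did not overlap with WTCKD, whereas WTCKD overlapped with WTSHAM and with WTCKD + RNLS. The log2 changes were -0.93 ± 0.38 from WTSHAM to WTCKD, -1.08 ± 0.43 from WTCKD to WTCKD + RNLS and -1.10 ± 0.43 from WTCKD to KOCKD, with edgeR adjusted p-values of 0.21, 0.17 and 0.46. The second was -1.71 without WTCKD + RNLS replicate 1 and -0.81 without replicate 3 of that group. The 5 groups differed with an adjusted p of 0.0024 by edgeR. Ccl8, another member of this cluster, measured 7.84, 3.08 and 3.09 CPM in WTSHAM and 11.2, 3.12 and 1.87 CPM in WTCKD. It measured 3, 1.3 and 0.842 CPM in WTCKD + RNLS, 4.46, 3.17 and 3.14 CPM in KOCKD and 0.488, 0.992 and 0.843 CPM in KOCKD + RNLS. All 3 KOCKD + RNLS hearts were below all 3 KOCKD hearts, while a single WTCKD heart set the mean of that group. Ccl8 fell by 2.20 ± 0.69 on the log2 scale from KOCKD to KOCKD + RNLS, with an adjusted p of 0.040 by edgeR. This call was lost without any one of the 6 libraries compared, with edgeR adjusted p-values of 0.0978, 0.0791 and 0.0626 on omitting KOCKD replicates 1, 2 and 3 in turn and of 0.129, 0.0897 and 0.0916 on omitting those of KOCKD + RNLS. Its 5-group difference (adjusted p = 0.029 by edgeR) became 0.0842, 0.0679 and 0.0712 without KOCKD + RNLS replicates 1, 2 and 3. In WTCKD + RNLS against WTCKD the log2 change was -1.65 ± 0.60 with an adjusted p of 0.13, and it was -0.54 without WTCKD replicate 1.

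Ccl6 and Ccl9, ligands of Ccr1 made by myeloid cells, are neighbours on chromosome 11 and were ordered alike. Ccl6 measured 30.8, 22.3 and 21.7 CPM in WTSHAM and 20.2, 20.2 and 11.3 CPM in WTCKD. It measured 17, 12.7 and 12.9 CPM in WTCKD + RNLS, 13.3, 18.2 and 9.67 CPM in KOCKD, and 8.94, 6.37 and 3.65 CPM in KOCKD + RNLS. The KOCKD + RNLS hearts were below every other heart, and the sham hearts were above every other heart. Ccl6 fell by 1.10 ± 0.30 on the log2 scale from KOCKD to KOCKD + RNLS, with an adjusted p of 0.023 by edgeR. This p was 0.117 without KOCKD replicate 2, 0.075 without KOCKD + RNLS replicate 2 and 0.0908 without KOCKD + RNLS replicate 3. Ccl9 measured 21, 16 and 15.5 CPM in WTSHAM and 11.7, 14.3 and 7.32 CPM in WTCKD. It measured 11.1, 8.45 and 9.42 CPM in WTCKD + RNLS, 9.54, 9.6 and 5.64 CPM in KOCKD and 5.36, 4.63 and 3 CPM in KOCKD + RNLS. Again KOCKD + RNLS was below and WTSHAM above all other groups without overlap. Ccl9 fell by 0.92 ± 0.28 on the log2 scale from KOCKD to KOCKD + RNLS, with an adjusted p of 0.035 by edgeR. Omitting KOCKD replicate 1 or 2 gave 0.104 and 0.126, and omitting KOCKD + RNLS replicate 2 or 3 gave 0.0837 and 0.125. From WTSHAM to WTCKD, Ccl6 changed by -0.53 ± 0.27 and Ccl9 by -0.66 ± 0.24 on the log2 scale, with edgeR adjusted p-values of 0.33 and 0.17, and the Ccl9 value was -0.43 without WTCKD replicate 3. Differences among the 5 groups had edgeR adjusted p-values of 0.0038 for Ccl6 and 0.0013 for Ccl9. Summed over the 17 measured of 18 macrophage markers, none of them at 0 in any library, levels were 677 to 853 CPM in WTSHAM, 509 to 677 in WTCKD, 464 to 521 in WTCKD + RNLS, 450.0 to 544 in KOCKD and 357 to 462 in KOCKD + RNLS. The part of these cells in the CC ligand differences was not tested.

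Ccl21a, which lymphatic endothelium makes to guide Ccr7-bearing cells, measured 30.4, 27.4 and 18.7 CPM in WTSHAM and 24.3, 25 and 24.6 CPM in WTCKD. It measured 22.4, 16.9 and 14.9 CPM in WTCKD + RNLS, 23.4, 14.8 and 21.7 CPM in KOCKD and 14.3, 10.4 and 16.4 CPM in KOCKD + RNLS. WTCKD + RNLS lay below WTCKD without overlap, whereas the knockout groups overlapped. Neither change passed the test, at -0.45 ± 0.21 in wild-type and -0.55 ± 0.21 in knockout mice on the log2 scale, with edgeR adjusted p-values of 0.24 and 0.090. The 5-group difference (adjusted p = 0.029 by edgeR) became 0.0571 without WTSHAM replicate 2, 0.0501 without WTCKD replicate 1, and 0.0666 or 0.0915 on omitting KOCKD + RNLS replicate 1 or 2. Ccl21a has near-identical gene copies that reads can be split between, so its level is uncertain. The 6 lymphatic endothelial markers summed to 185.0 to 212 CPM in WTSHAM, 176 to 204 in WTCKD, 129 to 183 in WTCKD + RNLS, 127 to 167 in KOCKD and 164 to 184 in KOCKD + RNLS. None of them was at 0 in any library, none was called in any comparison of 2 groups, and their part in the Ccl21a levels was not tested. The other CC ligands with enough counts were Ccl5, Ccl11, Ccl24, Ccl25 and Ccl27a. Group means ran from 0.677 to 1.11 CPM for Ccl5, from 3.46 to 6.76 CPM for the eotaxin Ccl11, from 1.10 to 2.38 CPM for the eotaxin Ccl24, from 0.871 to 1.31 CPM for Ccl25 and from 2.24 to 3.62 CPM for Ccl27a. None of these 5 was called in any comparison. Ccl24 in KOCKD + RNLS against KOCKD had a log2 change of -1.07 ± 0.48 with an unadjusted p of 0.041 and an adjusted p of 0.14 by edgeR.

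Among the CXC ligands, Cxcl14 fell with RNLS in wild-type hearts. Cxcl14, a ligand made in healthy tissue, measured 14.9, 22.1 and 23.3 CPM in WTSHAM, 32.4, 24.3 and 30.2 CPM in WTCKD and 16.9, 13.7 and 17.8 CPM in WTCKD + RNLS. It measured 32, 25.6 and 19.2 CPM in KOCKD and 15, 18.3 and 19 CPM in KOCKD + RNLS. All WTCKD hearts were above all WTSHAM and all WTCKD + RNLS hearts, and KOCKD + RNLS lay just below KOCKD without overlap. The fall from WTCKD to WTCKD + RNLS was -0.84 ± 0.19 on the log2 scale, a fold of 0.559, with an adjusted p of 0.021 by edgeR. Leaving out WTCKD replicate 1 or 3 gave adjusted p-values of 0.0911 and 0.0548, and leaving out WTCKD + RNLS replicate 1 or 2 gave 0.0629 and 0.0552. The other changes were 0.52 ± 0.19 from WTSHAM to WTCKD and -0.56 ± 0.19 from KOCKD to KOCKD + RNLS, with edgeR adjusted p-values of 0.16 and 0.061. The second was called with an adjusted p of 0.034 without WTSHAM replicate 1, of 0.0235 without KOCKD replicate 3 and of 0.0353 with only the 6 libraries compared, whereas without KOCKD replicate 1 the log2 change was -0.36 with an adjusted p of 0.254. The 5-group difference (adjusted p = 0.018 by edgeR) became 0.0514 without WTCKD replicate 1.

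Cxcl12, which retains Cxcr4-bearing cells and is made by stromal and endothelial cells, varied within narrow limits. It measured 275, 223 and 259 CPM in WTSHAM, 319.6, 282 and 311 CPM in WTCKD and 229.6, 262 and 258 CPM in WTCKD + RNLS. It measured 313, 268 and 303 CPM in KOCKD and 306, 332 and 285 CPM in KOCKD + RNLS. WTCKD lay above both WTSHAM and WTCKD + RNLS without overlap, and the knockout groups overlapped. The log2 changes were 0.27 ± 0.10 from WTSHAM to WTCKD, -0.28 ± 0.10 with RNLS in wild-type mice and 0.06 ± 0.10 with RNLS in knockout mice, with edgeR adjusted p-values of 0.15, 0.10 and 0.70. Cxcl16, a membrane-bound ligand of Cxcr6, measured 9.42, 12 and 9.79 CPM in WTSHAM, 9.89, 9.46 and 7.49 CPM in WTCKD and 7.18, 7.52 and 6.81 CPM in WTCKD + RNLS. It measured 10.8, 8.48 and 7.9 CPM in KOCKD and 9.99, 11.6 and 12.2 CPM in KOCKD + RNLS. WTCKD + RNLS was lowest and KOCKD + RNLS highest, and these 2 groups did not overlap. The 5-group differences of Cxcl12 and Cxcl16 had adjusted p-values of 0.048 and 0.049 by edgeR and were the least stable of the 15. Leaving out single libraries, the adjusted p ran from 0.0276 to 0.10 for Cxcl12 and from 0.0361 to 0.116 for Cxcl16. For Cxcl12 it stayed under 0.05 in 4 of 15 such fits, without WTSHAM replicate 1, WTCKD replicate 2, WTCKD + RNLS replicate 2 or KOCKD replicate 2. For Cxcl16 it did so in 3 of 15, without WTSHAM replicate 1, WTCKD replicate 3 or KOCKD replicate 1. In the table, Cxcl16 shares 552 exon bases with Zmynd15 on the other strand (mm9 annotation). Whether reads were counted by strand is not given in the sources used here.

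Cxcl10, an interferon-induced ligand of Cxcr3, measured 3.42, 4.81 and 0.809 CPM in WTSHAM and 0.592, 0.918 and 0.51 CPM in WTCKD. It measured 0.751, 0.371 and 0.766 CPM in WTCKD + RNLS, 0.262, 0.559 and 0.161 CPM in KOCKD and 1.54, 0.992 and 0.656 CPM in KOCKD + RNLS. A pair of sham hearts was above all CKD hearts and the third was not, and KOCKD + RNLS lay above KOCKD without overlap at 2 to 19 counts per library in these groups. The log2 changes were -2.15 ± 0.57 from WTSHAM to WTCKD and 1.71 ± 0.70 from KOCKD to KOCKD + RNLS, with edgeR adjusted p-values of 0.059 and 0.10. Without WTSHAM replicate 3 the edgeR adjusted p-values of these comparisons were 0.0055 and 0.040, and without WTCKD + RNLS replicate 2 or with no filter on low counts the first was 0.0465 and 0.0449. The 5-group difference (adjusted p = 0.0083 by edgeR) became 0.0556 without WTSHAM replicate 2. Cxcl10 shares 133 exon bases with Art3 on the other strand, so reads of the pair may not be separable. Cxcl9, its neighbour and also interferon-induced, measured 7.17, 28 and 9.93 CPM in WTSHAM and 3.9 to 11.3 CPM in the CKD groups, and it was called in no comparison. Of 20 interferon gamma-induced genes tested, 18 fell from WTSHAM to WTCKD (median log2 change -1.77, all 20 negative), and 0 were called in either RNLS comparison. The share called with CKD was 90%, beside 2.3% of all tested genes. In WTCKD + RNLS and KOCKD + RNLS, 4.47% and 16.1% of all tested genes were called. The sum of the 20 genes was 846, 3032 and 1502 CPM in WTSHAM and 344 to 522 CPM in the CKD groups, and its part in the Cxcl10 difference was not tested. The remaining CXC ligands were low, with group means of 0.731 to 2.61 CPM for the neutrophil attractant Cxcl1 and 0.211 to 1.21 CPM for the B cell attractant Cxcl13, and neither was called.

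Cx3cl1 (fractalkine), the ligand of Cx3cr1 that endothelium displays on its membrane or sheds, fell with RNLS in both genotypes. It measured 17, 23.8 and 18.4 CPM in WTSHAM, 20.5, 24 and 22.6 CPM in WTCKD and 10.2, 10.5 and 11.3 CPM in WTCKD + RNLS. It measured 23.8, 21.1 and 21.5 CPM in KOCKD and 13.5, 11.5 and 12.2 CPM in KOCKD + RNLS. All 6 hearts given RNLS were below all 9 hearts that were not, and KOCKD overlapped with WTCKD. From 22.4 ± 1.73 CPM in WTCKD to 10.7 ± 0.596 CPM in WTCKD + RNLS (SD, n = 3 each), the log2 change was -1.07 ± 0.13, a fold of 0.477. The adjusted p was 0.00042 by edgeR. From 22.1 ± 1.47 CPM in KOCKD to 12.4 ± 1.01 CPM in KOCKD + RNLS (SD, n = 3 each), the log2 change was -0.84 ± 0.13, a fold of 0.56. The adjusted p was 0.0017 by edgeR. These calls held under all 21 alternatives, with the log2 change between -1.12 and -1.02 in wild-type and between -0.90 and -0.78 in knockout mice when single libraries were left out. The difference of the RNLS effect between genotypes was 0.23 ± 0.18 (adjusted p = 0.54 by edgeR). The change from WTSHAM to WTCKD was 0.18 ± 0.12 with an adjusted p of 0.49 by edgeR, and the 5-group difference had an adjusted p of 0.00014.

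Genes of endothelium and of the circadian clock moved beside Cx3cl1. Of 10 blood endothelial markers, 5 fell in WTCKD + RNLS (Cdh5, Cldn5, Emcn, Kdr and Pecam1) and 3 fell in KOCKD + RNLS (Cldn5, Esam and Pecam1). These calls are 50% and 30% of the list, beside 4.47% and 16.1% of all tested genes. The 10 markers summed to 1459 to 1609 CPM in WTSHAM, 1502 to 1679 in WTCKD, 1064 to 1172 in WTCKD + RNLS, 1333 to 1541 in KOCKD and 1231 to 1296 in KOCKD + RNLS, and none was at 0 in any library. Of 15 clock genes, 8 rose and 3 fell in WTCKD + RNLS, and 7 rose and 2 fell in KOCKD + RNLS. The clock shares called were 73.3% and 60%, beside the same 4.47% and 16.1% of all tested genes. Arntl, the clock activator, had 16, 20 and 32 counts in WTCKD + RNLS and 20, 18 and 15 counts in KOCKD + RNLS, against 92 to 443 counts in the other 9 hearts. Low Arntl and RNLS treatment coincided in every library, so the 2 cannot be told apart here. The parts of endothelial cells and of the clock in the fall of Cx3cl1 were not tested.

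**Figure D2:**
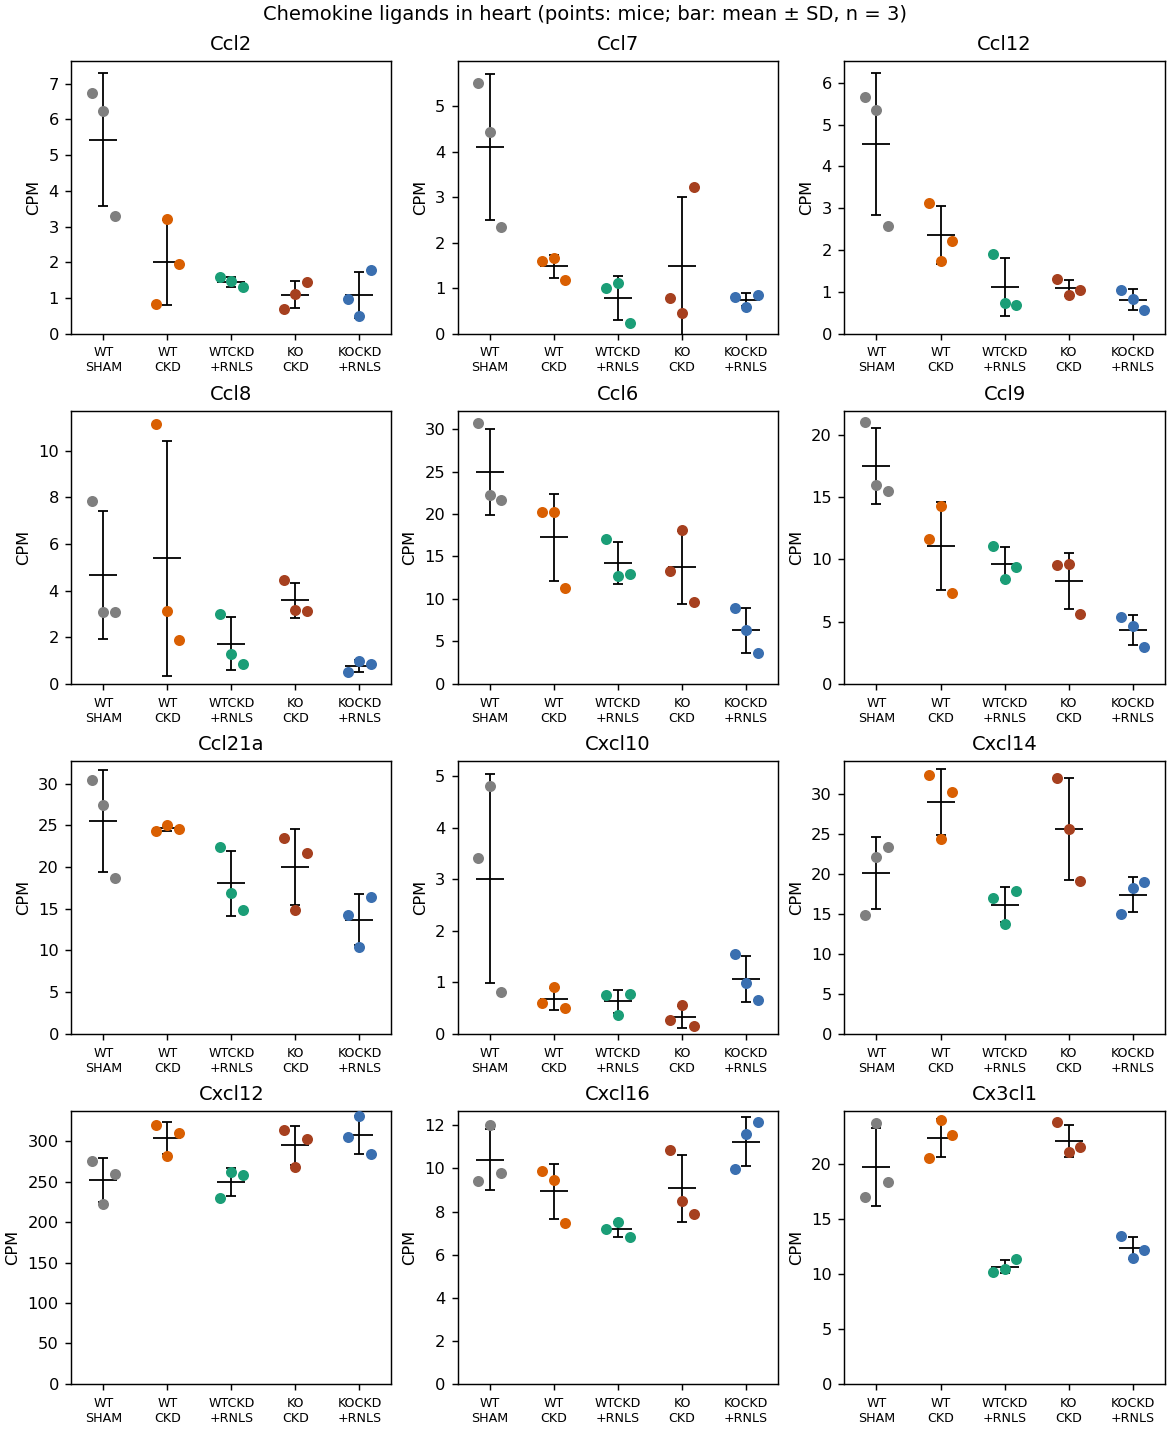
CPM of 12 ligands in every mouse (points) with the group mean and SD (bars, n = 3), on linear axes from 0, where the lower bar of Ccl7 in KOCKD ends at the axis. Cx3cl1 lies between 10.2 and 13.5 CPM in both RNLS groups and between 17 and 24 CPM elsewhere, and Ccl6 and Ccl9 are lowest in KOCKD + RNLS.

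No receptor was called in a comparison of 2 groups by edgeR, beside the background shares given for each comparison below. Ccr2, the receptor for Ccl2, Ccl7 and Ccl12 on monocytes, measured 4.42, 5.34 and 4.71 CPM in WTSHAM, 3.89, 3.76 and 3.06 CPM in WTCKD and 4.42, 2.88 and 2.76 CPM in WTCKD + RNLS. It measured 2.62, 1.77 and 2.74 CPM in KOCKD and 2.11, 2.07 and 2.53 CPM in KOCKD + RNLS. WTCKD lay below WTSHAM and KOCKD below WTCKD, each without overlap. The log2 changes were -0.43 ± 0.23 and -0.58 ± 0.25 with edgeR adjusted p-values of 0.36 and 0.48, and the 5-group difference (adjusted p = 0.017 by edgeR) became 0.0521 without WTSHAM replicate 2. Ccr1, the receptor for Ccl6 and Ccl9, had group means of 1.16 to 3.02 CPM and was called in no comparison.

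Cx3cr1, the receptor for Cx3cl1 on monocytes and resident macrophages, measured 1.251, 17.4 and 8.39 CPM in WTSHAM and 4.56, 3.95 and 4.93 CPM in WTCKD. It measured 3.84, 1.86 and 2.76 CPM in WTCKD + RNLS, 3.94, 5.12 and 3.46 CPM in KOCKD and 0.813, 1.08 and 1.69 CPM in KOCKD + RNLS. Both RNLS groups lay below their CKD control without overlap, and the sham hearts spread more widely than any other group. The log2 change was -0.66 ± 0.58 in wild-type and -1.81 ± 0.66 in knockout mice, with edgeR adjusted p-values of 0.58 and 0.070. In knockout mice the call passed with an adjusted p of 0.0045 without WTSHAM replicate 1, of 0.0329 without WTSHAM replicate 2 and of 0.0033 with only the 6 libraries compared. The 5-group difference (adjusted p = 0.024 by edgeR) became 0.0694 without WTSHAM replicate 2 and 0.0697 or 0.0704 on omitting KOCKD + RNLS replicate 1 or 2. Cxcr4, the signalling receptor for Cxcl12, measured 5.17, 7.44 and 6.7 CPM in WTSHAM, 8.96, 8.17 and 4.68 CPM in WTCKD and 6.51, 4.09 and 6.66 CPM in WTCKD + RNLS. It measured 9.62, 6.99 and 10.8 CPM in KOCKD and 4.63, 7.03 and 12.1 CPM in KOCKD + RNLS. The groups overlapped throughout, apart from KOCKD and WTCKD + RNLS, and the 5-group difference had an adjusted p of 0.42 by edgeR. Cxcr2 had group means of 0.321 to 0.864 CPM and was called in no comparison.

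Ackr3, the scavenger of Cxcl12, measured 128, 98.9 and 113 CPM in WTSHAM, 139.6, 137 and 120.0 CPM in WTCKD and 71.4, 104 and 112 CPM in WTCKD + RNLS. It measured 119.7, 131 and 111 CPM in KOCKD and 133, 100.2 and 106 CPM in KOCKD + RNLS. WTCKD + RNLS lay below WTCKD without overlap, with a log2 change of -0.46 ± 0.15, an unadjusted p of 0.0070 and an adjusted p of 0.092 by edgeR. Without WTCKD + RNLS replicate 1, the lowest of the 15 hearts, the log2 change was -0.29. Ackr4, which scavenges Ccl19, Ccl21 and Ccl25, measured 4.25, 6.01 and 3.97 CPM in WTSHAM, 5.24, 5.05 and 6.3 CPM in WTCKD and 6.09, 6.59 and 5.9 CPM in WTCKD + RNLS. It measured 6.74, 7.55 and 4.59 CPM in KOCKD and 10.2, 6.04 and 6.09 CPM in KOCKD + RNLS. These groups mostly overlapped, and the 5-group differences of Ackr3 and Ackr4 had edgeR adjusted p-values of 0.17 and 0.25. Ackr2, the scavenger of inflammatory CC ligands, had group means of 1.53 to 3.05 CPM and was called in no comparison.

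**Figure D3:**
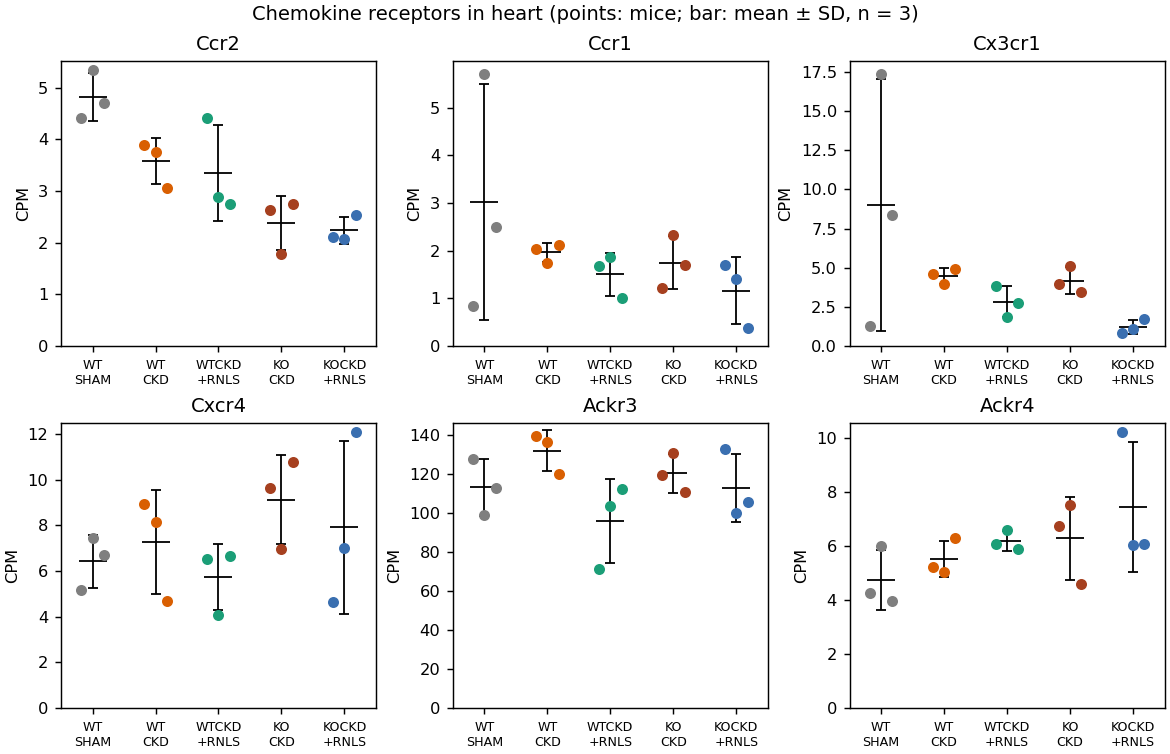
CPM of 6 receptors in every mouse (points) with the group mean and SD (bars, n = 3), on linear axes from 0. Cx3cr1 lies between 0.813 and 1.69 CPM in KOCKD + RNLS, and the Cxcr4 points of most groups overlap.

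The effect of CKD was asked by WTCKD against WTSHAM. The paper names a vector for WTCKD but none for WTSHAM, so nephrectomy and vector cannot be told apart in this comparison. Of 29 members, 0 were called at an adjusted p under 0.05 by edgeR, beside 2.3% of all tested genes, while 8 had an unadjusted p under 0.05 (background 17.6%). DESeq2, which gave no adjusted p for 8 of the members here, called 2 members, among them Ccl2, both lower. The study's rule was a log2 fold change beyond 0.32 in either direction and an unadjusted p under 0.05. It is applied throughout to edgeR's fit of all 15 libraries, whereas the study used DESeq, whose counts can differ. Under this rule 7 members passed (24.1%, beside 11.3% of tested genes, of which 3.66% were higher and 7.63% lower). Lower in WTCKD were 6 of them, including Ccl2, Ccl7, Ccl9, Ccl12 and Cxcl10, and Cxcl14 was higher. Groups did not overlap for 8 members (27.6%, beside 22.5%, of which 10.3% were higher and 12.2% lower), with 6 lower, including Ccl2, Ccl6, Ccl7, Ccl9 and Ccr2, and with Cxcl12 and Cxcl14 higher. Over the 29 members 17 changes were negative and the median was -0.22 on the log2 scale, against -0.01 over all tested genes. This median was -0.02 without WTSHAM replicate 1 and -0.01 without WTSHAM replicate 2.

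The effect of RNLS in wild-type mice was asked by WTCKD + RNLS against WTCKD, a comparison that shares its control with the one before. Here edgeR called 2 members (6.9%, beside 4.47% of tested genes), Cx3cl1 and Cxcl14, both lower, where 2.28% of tested genes were lower. The study's rule was met by 6 members (20.7%, beside 14.4%, and 8.09% lower), all lower, namely Ackr3, Ccl8, Ccl12, Ccl21a, Cx3cl1 and Cxcl14. The groups did not overlap for 10 members (34.5%, beside 21.2%, and 10.8% lower), all lower in WTCKD + RNLS. These were Ackr2, Ackr3, Ccl7, Ccl21a, Ccl24, Cx3cl1, Cx3cr1, Cxcl9, Cxcl12 and Cxcl14. Of 29 changes 26 were negative, and the median was -0.45 on the log2 scale against 0.01 over all tested genes.

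In knockout mice, KOCKD + RNLS against KOCKD, edgeR called 4 members (13.8%), all lower, namely Cx3cl1, Ccl6, Ccl8 and Ccl9. The share was close to the 16.1% of all tested genes that this comparison called, of which 7.04% were lower. The study's rule was met by 9 members (31%, beside 22.3%, of which 12.2% were higher and 10.1% lower), of which Cxcl10 was higher and Ccl6, Ccl8, Ccl9, Ccl21a, Ccl24, Cx3cl1, Cx3cr1 and Cxcl14 were lower. Groups did not overlap for 7 members (24.1%, beside 40.6%, of which 20.6% were higher and 20% lower), with Cxcl10 higher and Ccl6, Ccl8, Ccl9, Cx3cl1, Cx3cr1 and Cxcl14 lower. Of 29 changes 21 were negative, and the median was -0.22 on the log2 scale against -0.01 over all tested genes. The median moved to -0.08 without KOCKD replicate 3 and to -0.46 without KOCKD + RNLS replicate 1.

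**Figure D4:**
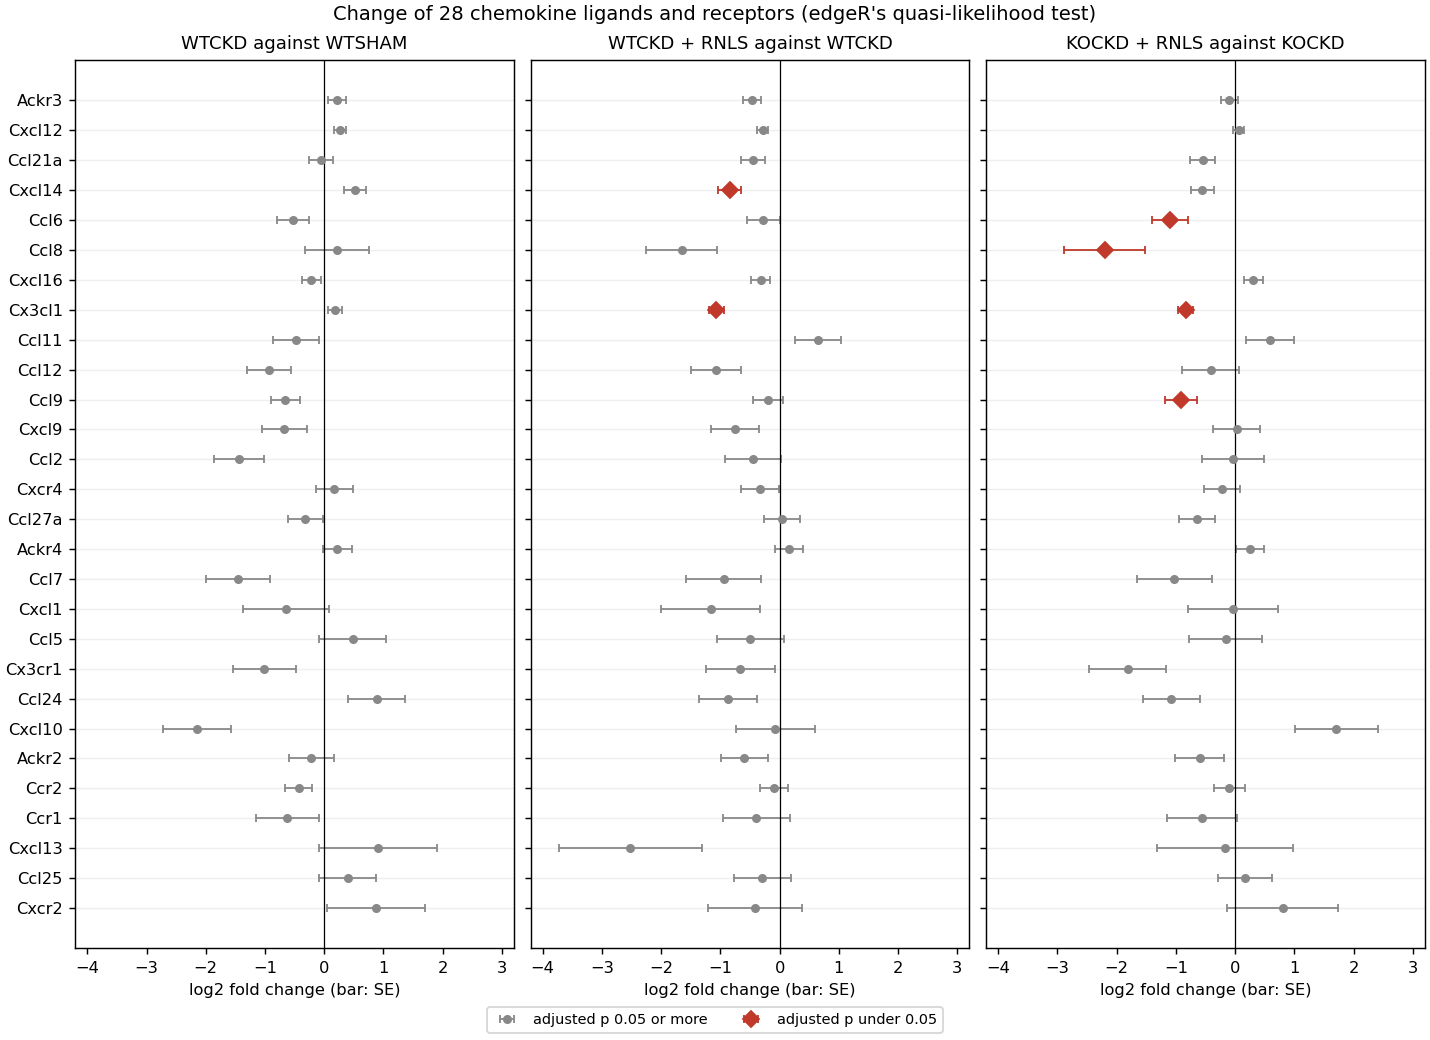
Log2 fold change ± SE of 28 members, ordered by mean FPKM, in the 3 comparisons of CKD with sham and of RNLS with its control, with diamonds for an adjusted p under 0.05 by edgeR. No diamond appears for WTCKD against WTSHAM, 2 appear for WTCKD + RNLS against WTCKD and 4 for KOCKD + RNLS against KOCKD, all on the lower side.

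The effect of the knockout within CKD was asked by KOCKD against WTCKD. The paper names different sources for the knockout and the wild-type mice, so genotype and source cannot be told apart here. edgeR and DESeq2 both called 0 of 29 members, beside 0% of tested genes by edgeR, and an unadjusted p under 0.05 was found for 2 members, Ccl12 and Ccr2, beside 10.1% of tested genes. Both were lower in KOCKD. Groups did not overlap for 4 members (13.8%, beside 19.3%, and 9.43% lower), Ccl12, Ccl21a, Ccr2 and Cxcr2, all lower in KOCKD. The median change was -0.17 on the log2 scale, with 21 of 29 negative, against a median of -0.0047 over all tested genes. The difference of the RNLS effect between genotypes was called for 0 members by edgeR, beside 0% of tested genes, and for 0 by DESeq2, which gave 25 of the 29 no adjusted p. An unadjusted p under 0.05 was found for 2 members, beside 17.6% of tested genes. These were Cxcl12, with a log2 difference of 0.35 ± 0.13, and Cxcl16, with 0.63 ± 0.23, and their edgeR adjusted p-values were 0.21 and 0.19. For both, the RNLS change was more negative in wild-type than in knockout mice. All 7 CXC ligands had a positive difference, with a median of 0.78 on the log2 scale, whereas 8 of 12 CC ligands had a negative one, with a median of -0.09. The median over all tested genes was 0.01. Of the CXC ligands, Cxcl1, Cxcl10 and Cxcl13 were low, with means of 1.63, 1.14 and 0.614 CPM over all hearts.

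The wider chemokine pathway was read from lists of genes. Of 10 measured genes of the family outside the symbol rule, such as Pf4, Ccrl2 and Mif, 8 were tested and 0 were called in a comparison of 2 groups by edgeR. Among 66 tested genes of chemokine signal transduction, 0 were called in WTCKD against WTSHAM, and in WTCKD + RNLS 3.03% were called, beside 4.47% of all tested genes, with the kinase Lyn and the GTPase Rap1b lower. In KOCKD + RNLS, Jak2, Plcb4 and Tiam1 rose and the G protein subunits Gnb2, Gng5, Gng10 and Gng11 and the GTPase Rap1a fell, which is 12.1% of the list beside 16.1% of all tested genes. Among 36 inducers of chemokine transcription, 4 fell from WTSHAM to WTCKD, among them Irf1, Irf7 and Csf1, and Nfkbia and Tgfb1 rose, with a log2 change of -2.90 ± 0.26 for Irf7. Tgfb1, Tnfaip3 and Tnfrsf1a fell in WTCKD + RNLS, and Il33 and Rel rose in KOCKD + RNLS. The shares of this list called were 16.7%, 8.33% and 5.56%, beside 2.3%, 4.47% and 16.1% of all tested genes. Of 17 genes for cleavage and presentation of chemokines, 0 changed with CKD. The membrane protease Mmp14 fell with RNLS in both genotypes, by 1.08 ± 0.16 and 1.07 ± 0.16 on the log2 scale, and Ndst1, which sulphates heparan chains, rose in KOCKD + RNLS, so that 5.88% and 11.8% of the list were called. Adam10 and Adam17, proteases that shed Cx3cl1 and Cxcl16, were called in no comparison of 2 groups. Of 19 genes for leukocyte adhesion in the vessel wall, 0 changed with CKD. Icam1, Cdh5 and Pecam1 fell in WTCKD + RNLS, and in KOCKD + RNLS Icam2 and Pecam1 fell and Jam2 rose, which is 15.8% of the list in each, beside 4.47% and 16.1% of all tested genes.

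Markers of the cells that carry these receptors were read in the same way. Of all tested genes, edgeR called 2.3% in WTCKD against WTSHAM, 4.47% in WTCKD + RNLS and 16.1% in KOCKD + RNLS. Of 17 macrophage markers, Fcgr1 fell with CKD, 0 were called in WTCKD + RNLS, and C1qa and Lyz2 fell in KOCKD + RNLS. The macrophage share called was 5.88% with CKD and 11.8% in KOCKD + RNLS, the latter below the share of all tested genes. Log2 changes were negative for 15 of 17 with CKD, 15 in WTCKD + RNLS and 12 in KOCKD + RNLS. The test of any difference among the 5 groups called 13 of these 17 markers (76.5%), beside 22.2% of all tested genes. It also called 90% of blood endothelial, 55.6% of fibroblast and of cardiomyocyte, and 50% of dendritic, lymphatic and mesothelial markers. Its share was 33.3% for monocyte and neutrophil, 12.5% for pericyte and smooth muscle, and 0% for the other marker lists tested. Of 9 fibroblast markers, Col1a1 fell in both RNLS comparisons, Dpt fell in WTCKD + RNLS and Mfap5 in KOCKD + RNLS. The fibroblast share called was 22.2% in each. Of 6 dendritic cell markers H2-Aa fell in KOCKD + RNLS (16.7%), and 0 of 6 monocyte and neutrophil, 3 T cell, 3 B cell and 5 mast cell markers were called in a comparison of 2 groups. NK cell, lung and thymus markers were too low to test. Abcc9, 1 of 8 pericyte and smooth muscle markers (12.5%), rose in both RNLS comparisons. Of 9 cardiomyocyte markers 2 rose in KOCKD + RNLS (22.2%), and of 6 atrial markers Myl4, Myl7 and Sln fell there (50%). Upk3b, a mesothelial gene, fell and Hbb-bs, a globin gene, rose in WTCKD + RNLS, and 0 of 5 adipocyte markers were called. Upk3b was 1 of 2 tested markers of its list (50%) and Hbb-bs was 1 of 5 (20%). No gene of these lists was called in KOCKD against WTCKD or for the difference between genotypes by edgeR, and the parts of these cell types in the chemokine values were not tested.

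**Figure D5:**
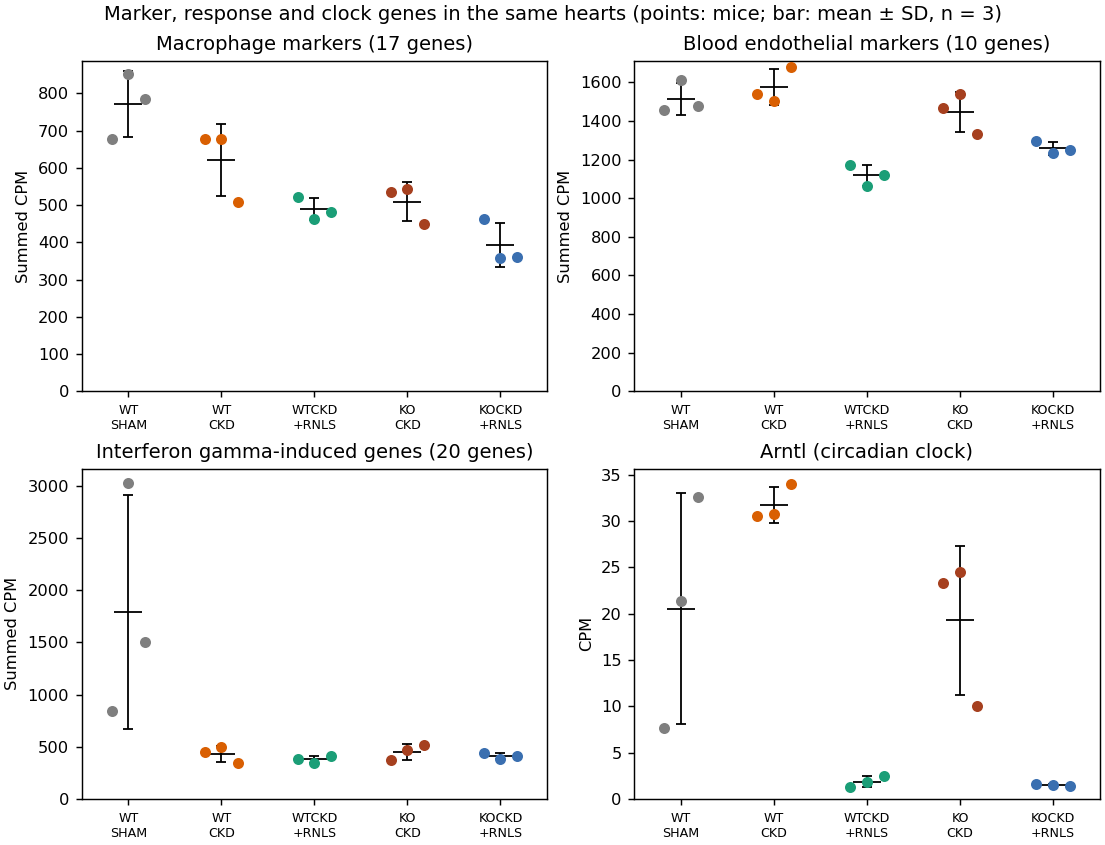
Summed CPM of 17 macrophage, 10 blood endothelial and 20 interferon gamma-induced genes, and CPM of the clock gene Arntl, in every mouse (points) with the group mean and SD (bars, n = 3). The interferon sum is 846 to 3032 CPM in WTSHAM and at most 522 CPM elsewhere, and Arntl is low in all 6 RNLS hearts.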

How the data were processed

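Heart RNA of 15 mice was measured by stranded mRNA sequencing. The authors trimmed reads with Trimmomatic, mapped them with hisat2 and counted them per gene with htseq-count, and they deposited these counts without normalization. The submitters' processing notes name GRCm39 and the study's supplement names mm9, so no gene coordinates of the files are given, and tool versions are not given in the sources used here. The authors also deposited FPKM values, in which 1 length per gene and the library total scale the counts. Which library ran on which of the sequencers named is not given in the sources used here. Groups came from the sample labels, which give separate mice.

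Counts were tested with edgeR 4.0.16 in R 4.3.3 (quasi-likelihood test, TMM scaling, filterByExpr with min.count 10 and min.total.count 15, group as the only term, all 15 libraries, two-sided), which left 13021 of the 17147 genes with a count. A member was called at a Benjamini-Hochberg adjusted p under 0.05 over all tested genes. Alternatives were DESeq2 1.42.0, a fit with replicate numbers as a block, RLE factors, all genes unfiltered, a fit to the compared libraries alone, the study's rule and leaving out each library. Full values were given for members called in any test, meeting the study's rule in 2 or more comparisons, or among the 3 ligands and 3 receptors with the highest mean FPKM. The members, gene lists and tests were chosen with earlier results of these data known. Other members were given by ranges, and the marker and pathway lists by counts and by the genes called. Arntl, Adam10, Adam17, Pf4, Ccrl2 and Mif were named after their values were seen. Library depth limits members under about 10 counts. The code was tested on simulated data. 1 member of the 29 and a pathway gene are counted but not reported here by name, and the first is not drawn in the figures.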

Additional observations from a re-analysis of the deposited data

How the results depend on the processing

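No result changed direction under the alternatives named in the methods. With RLE factors the shift of the median over all genes was at most 0.0080 (log2). In WTCKD against WTSHAM the 0 members called became 1 with no filter (Cxcl10), 2 with DESeq2 and 7 under the study's rule, and leaving out single libraries gave 0 to 1 (1 without WTSHAM replicate 1 or 3 or WTCKD + RNLS replicate 2). In WTCKD + RNLS against WTCKD the 2 members became 6 under the study's rule, and leaving out single libraries gave 1 to 2 (1 without WTCKD replicate 1 or 3 or WTCKD + RNLS replicate 1 or 2). In KOCKD + RNLS against KOCKD the 4 members became 9 under the study's rule, and leaving out single libraries gave 1 to 6 (2 without KOCKD replicate 1, 1 without KOCKD replicate 2 or KOCKD + RNLS replicate 2 or 3, and 6 without WTSHAM replicate 1). KOCKD against WTCKD and the difference between genotypes went from 0 to 2 each under the study's rule and stayed at 0 without any single library. For any difference among the 5 groups, leaving out single libraries gave 7 to 16 of 29. Member medians ranged from -0.30 to -0.0084 for WTCKD against WTSHAM, from -0.62 to -0.40 for WTCKD + RNLS against WTCKD, from -0.46 to -0.075 for KOCKD + RNLS against KOCKD, and from -0.21 to -0.15 for KOCKD against WTCKD when single libraries were left out. Fewer libraries give less power, and the cause of these changes was otherwise not tested. Of 30 same-numbered pairs of libraries, 5 had a correlation of deviations over 0.1 (range -0.36 to 0.33). Differently numbered pairs were not compared, so these values do not settle whether replicate numbers pair the mice. With the replicate block the calls were 0, 2, 4 and 0 in the comparisons of 2 groups in the order above, 0 for the difference between genotypes and 13 for the 5 groups, with Cxcl12 (adjusted p = 0.0682) and Cxcl16 (0.0633) no longer called. Ackr3 in WTCKD + RNLS, and Cx3cr1 and Cxcl14 in KOCKD + RNLS, were called by DESeq2 in addition to edgeR's calls, with adjusted p-values of 0.0463, 0.0470 and 0.0317. DESeq2 gave no adjusted p for 8 members in WTCKD against WTSHAM, 5 in KOCKD + RNLS against KOCKD and 25 for the difference between genotypes.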

Other observations

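Among members too low to test, KOCKD replicate 3 held the largest counts of Ccr7 (17) and Ccl28 (15), and its 8 B cell markers summed to 11.8 CPM, against 1.17 to 6.56 CPM in the other 14 hearts. Cxcl13, the B cell attractant, reached 33 counts in WTCKD replicate 2 and 17 in WTSHAM replicate 1, with 0 to 11 counts elsewhere. In WTSHAM replicate 1 the platelet chemokine Ppbp, which lies outside the symbol rule, had 108 counts against 0 to 21 in the other hearts, and the neutrophil attractant Cxcl1 had 67 counts against 5 to 39. These genes were singled out after their values were seen.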
